A study of Mus musculus with 40 samples.

Results

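Integrins are receptors for matrix proteins and for counter-receptors on other cells, and each is a dimer of 1 alpha and 1 beta subunit. The 10 subunit genes described here are Itgae, Itgb7, Itga4, Itgb1, Itgb8, Itgav, Itgal, Itgb2, Itga6 and Itgb3. They were taken as a named list, and each was read from its brightest probe set, by mean over the arrays of a type, among those annotated to that gene alone. All 10 were measured among 18194 genes in an experiment on sorted T cells. In a second experiment, on a semaphorin ligand, 9 were measured among 17097 genes, since no probe set on that array type is annotated to Itgb8 in the table used.

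Alpha and beta subunits pair inside the cell, and which dimers reach the surface depends on which subunits the cell makes. In T cells, alpha4 with beta7 is a receptor for the gut addressin MAdCAM, alpha4 with beta1 binds VCAM and fibronectin, and alphaE (CD103) with beta7 binds E-cadherin on epithelial cells. AlphaL with beta2 forms LFA, the receptor for ICAM. Alphav with beta8 binds latent TGF-beta and releases the active cytokine, and on regulatory T cells (Treg) it is known for that role, whereas alphav with beta3 binds vitronectin and fibronectin. Alpha6 with beta1 is a laminin receptor. Inside-out signals through Rap GTPases, talin and kindlin set the affinity of a dimer, so a transcript level does not give its activity.

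All cells were CD4+ T cells of C57Bl/6 mice. In the sorted experiment, cells of Foxp3GFP reporter mice were sorted as CD4+CD45RBlow GFP+ Treg or as CD4+CD45RBhi GFP- conventional T cells and cultured for 48 h. The groups were Treg activated with antibodies to CD3 and CD28 (3 arrays), resting Treg without stimulation (3 arrays) and resting conventional T cells (2 arrays). No activated conventional group was analysed here. The sort also differed in CD45RB, a marker that is high on naive cells, so lineage and prior activation cannot be told apart in the comparisons with conventional cells. In the ligand experiment, Treg from spleen and lymph nodes were cultured with plate-bound anti-CD3 (1 µg/mL), anti-CD28 (2 µg/mL) and IL-2 (100 U/mL), together with 10 µg/mL of either IgG1 or Sema4a-Ig, a fusion protein of semaphorin-4a. These Treg came from Foxp3-YFPiCre mice (WT) or from mice that also carried floxed Nrp alleles (KO), in which Cre is expressed where Foxp3 is. All groups of that experiment carry the Cre reporter allele. There were 8 arrays in each of the 4 combinations, read as 8 IgG1 and Sema4a-Ig pairs per genotype. The labels give no ages and do not say that replicates were separate animals or cultures, so the p-values rest on a spread that could be technical.

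Marker genes were checked against these labels. Foxp3 had a log2 signal of 10.33 to 10.91 in the 6 sorted Treg arrays and of 3.95 to 4.05 in the conventional arrays. In the ligand experiment its probe set gave 3.27 to 3.82 on all 32 arrays, under the highest of 23 nonspecific control probe sets (3.95), while Ikzf2 (10.71 to 11.50) and Ctla4 (10.91 to 11.27) were far above the control probe sets. Array quality differed in the sorted experiment. The 3′ minus 5′ signal of Actb, which grows when RNA is degraded or labelled incompletely, was 5.87 and 6.17 in 2 activated Treg arrays and 5.90 in 1 resting Treg array, and 1.24 to 2.67 in the other 5. The mean log2 signal over 16 myeloid marker genes was 5.51 to 7.13 in activated Treg, 5.23 to 6.01 in resting Treg and 5.15 to 5.21 in conventional cells. Over 9 B cell genes it was 5.95 to 6.68, 6.08 to 6.74 and 5.45 to 5.49, and the B cell genes Cd79b, Ighm and Cd79a were called higher in resting Treg than in conventional cells, by 2.85, 0.77 and 0.73. Klrd1, a natural killer cell receptor gene, was called lower there (-4.73). The part of such cells in the subunit differences between sorted groups was not tested.

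The promoter sequences of 3 members are printed because the results of the 2 experiments turn on them: Itgb8 stood highest in Treg against conventional cells among the members with a promoter in the table, and Itga4 and Itgb7, partners in 1 dimer, both rose with Sema4a-Ig. Each is 300 bases, from 250 before to 50 after the transcription start, from the RefSeq promoter table on build GRCm38.p6, on the strand of the gene. Capitals mark matches, on either strand, to 5 motifs searched: TGTGGT (RUNX), TGTTTAC (forkhead), GGGCGG (KLF and SP), TTCNNNGAA (GAS, the STAT site) and GTCTAGAC (SMAD). Itgb8 lies at chr12:119238227-119238526 on the minus strand, Itga4 at chr2:79255176-79255475 on the plus strand and Itgb7 at chr15:102231886-102232185 on the minus strand.
Itgb8: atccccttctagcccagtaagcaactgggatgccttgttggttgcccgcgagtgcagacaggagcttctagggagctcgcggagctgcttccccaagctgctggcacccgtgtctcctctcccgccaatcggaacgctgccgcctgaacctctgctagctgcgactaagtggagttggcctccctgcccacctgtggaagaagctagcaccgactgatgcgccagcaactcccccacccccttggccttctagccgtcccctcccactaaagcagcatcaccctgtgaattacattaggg
Itga4: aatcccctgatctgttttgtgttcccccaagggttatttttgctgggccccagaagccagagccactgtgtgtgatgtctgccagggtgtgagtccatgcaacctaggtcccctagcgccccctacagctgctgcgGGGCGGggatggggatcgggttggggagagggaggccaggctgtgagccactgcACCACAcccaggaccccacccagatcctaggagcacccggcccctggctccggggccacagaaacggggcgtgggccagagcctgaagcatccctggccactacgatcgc
Itgb7: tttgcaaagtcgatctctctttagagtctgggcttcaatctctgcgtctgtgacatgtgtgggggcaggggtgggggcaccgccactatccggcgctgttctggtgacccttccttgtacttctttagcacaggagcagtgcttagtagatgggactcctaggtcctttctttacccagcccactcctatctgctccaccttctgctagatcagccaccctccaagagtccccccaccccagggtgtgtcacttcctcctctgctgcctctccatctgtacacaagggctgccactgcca

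In Itga4, GGGCGG began 114 bases before the start and ACCACA, the RUNX motif read on the other strand, began 60 bases before it. No letters of any of the 5 motifs were found in the Itgb8 and Itgb7 windows. Among all 32851 promoters of the same length, 35.7% held the KLF and SP motif, 16.8% the RUNX motif, 8.30% the GAS motif, 3.65% the forkhead motif and 0.213% the SMAD motif. The KLF and SP motif was also found in Itgav and Itgb1. The 3 printed windows had 60.7%, 64.3% and 56.3% G and C bases for Itgb8, Itga4 and Itgb7, against a median of 52.7% over all promoters. These matches describe the letters only.

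The first comparison asked which subunits distinguish Treg from conventional cells without stimulation. In resting Treg, 4 of the 10 subunits were higher than in resting conventional cells and none was lower (limma, Benjamini-Hochberg adjusted p under 0.05 over all genes). Among all genes tested, 3.86% were called higher and 1.65% lower. The subunits called higher were Itgae, Itgb8, Itgb1 and Itgav, which are chains of the E-cadherin receptor, the latent TGF-beta receptor and the fibronectin and laminin receptors. The arrays of the compared groups did not overlap for 6 of the 10 subunits, beside 42% of all genes. The median difference of the 10 was 0.29 on the log2 scale, against 0.01 over all genes. In such bulk cultures a larger share of cells with a transcript and more transcript per cell cannot be told apart.

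Itgae, the alpha chain of CD103, had a log2 signal of 10.40, 9.36 and 10.97 on the resting Treg arrays and of 4.52 and 4.55 on the conventional arrays. Every Treg array was above both conventional arrays. The difference was 5.71 ± 0.43 (log2, standard error, n = 3 and 2; limma adjusted p = 0.000257), a 52.2-fold higher signal and the 9th largest increase of all genes. The conventional values were not far above the highest of 3 array control probe sets (4.02) and under the median gene (5.76), so the fold is one from near background. A second Itgae probe set gave a smaller difference, 4.35 ± 0.35.

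Itgb8, the beta chain that pairs with alphav alone, had 8.27, 8.15 and 8.82 in resting Treg and 4.01 and 3.88 in conventional cells. The conventional values were no higher than the highest of 3 array control probe sets (4.02), so the difference of 4.47 ± 0.25 (n = 3 and 2; limma adjusted p = 5.85e-05) is one from background. Its partner Itgav had 10.29, 10.11 and 9.82 in resting Treg and 9.04 and 8.97 in conventional cells. The groups were apart, and the difference of 1.07 ± 0.22 (limma adjusted p = 0.0285) was smaller than that of Itgb8. The Itgav call was the least firm of the 4: its adjusted p was 0.0687 without resting Treg replicate 1, 0.0713 without replicate 2, and 0.218 and 0.226 without conventional replicates 1 and 2, and of its 5 probe sets only the brightest was called.

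Itgb1, a beta chain that pairs with alpha4 and with alpha6, had 10.27, 10.33 and 10.30 in resting Treg and 6.95 and 6.84 in conventional cells. There was almost no spread in either group. The difference was 3.40 ± 0.18 (n = 3 and 2; limma adjusted p = 3.88e-05). Of its 6 probe sets, all gave positive differences and 4 were called. An uncalled probe set with a mean log2 signal of 3.58 was under the highest of 3 array control probe sets (4.02).

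Among chains that pair with Itgae or Itgb1, Itga4, Itgb7 and Itga6 did not pass the test. Itga4, which pairs with Itgb1, had 12.23 to 12.59 in resting Treg and 12.04 and 12.33 in conventional cells, and these overlap. Itgb7, the only partner of Itgae, had 11.90 to 12.36 in Treg and 12.17 and 12.34 in conventional cells, a difference of -0.06 ± 0.27. Itga6, the laminin receptor chain, differed by 0.08 ± 0.20. For Itgae the contrast was thus in the alpha chain and not measurably in the beta chain.

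The leukocyte pair Itgal and Itgb2 was near level. Itgal had 10.66, 10.80 and 11.15 in resting Treg and 10.48 and 10.53 in conventional cells. The Treg arrays were all higher, by 0.37 ± 0.20, without passing the test (limma adjusted p = 0.397). Itgb2 differed by -0.04 ± 0.21.

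Itgb3, the beta chain of the vitronectin receptor, had the opposite order. It had 7.53, 8.69 and 8.64 in resting Treg and 9.89 and 9.98 in conventional cells, without overlap. The difference of -1.65 ± 0.45 missed the threshold (limma adjusted p = 0.0764). Over 16 alternative settings the adjusted p of Itgb3 ran from 0.00569 to 0.402, and it was called in 5 of them.

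**Figure D1:**
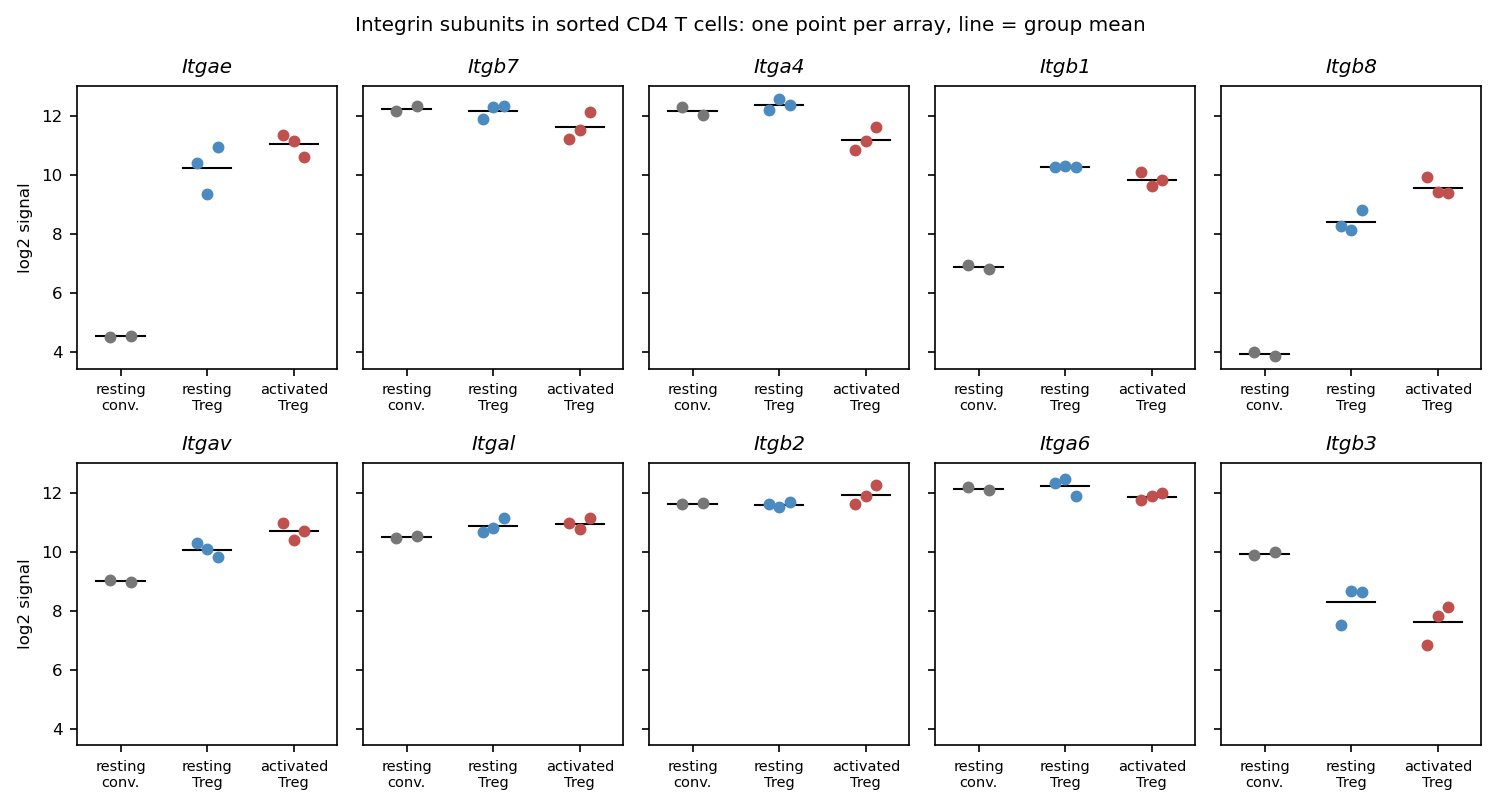
Log2 signal of the 10 subunits on each of the 8 arrays of sorted cells, with 1 point per array and a line at the group mean; levels are to be compared within a panel. Itgae, Itgb8 and Itgb1 were far lower in the 2 conventional arrays than in all 6 Treg arrays, and Itgb3 was higher there.

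The second comparison asked what stimulation through CD3 and CD28 did to the subunits of Treg. No subunit was called, beside 0.522% of all genes called higher and 0.22% called lower. At an unadjusted p under 0.05, 2095 of the 18194 genes differed. The arrays did not overlap for 4 of the 10 subunits, Itga4, Itgb1, Itgb8 and Itgav, beside 13% of all genes.

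Itga4 had 10.85, 11.15 and 11.64 in activated Treg against 12.23, 12.59 and 12.37 in resting Treg. All activated arrays were lower, and the difference was -1.18 ± 0.22 (n = 3 and 3; limma adjusted p = 0.0625, with a range of 0.0122 to 0.272 over the alternative settings). Without the 3 arrays with a high Actb 3′ minus 5′ signal the Itga4 difference was -0.84 ± 0.21, but this leaves 1 activated array, whose spread is assumed to be that of the other groups.

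Itgb8 went the other way. It had 9.94, 9.42 and 9.39 in activated Treg, all above the resting values of 8.15 to 8.82, and the difference was 1.17 ± 0.23 (limma adjusted p = 0.0691). Over 16 alternative settings the adjusted p of Itgb8 ran from 0.0174 to 0.383, and it was called in 2 of them. Itgav had 10.98, 10.39 and 10.70 in activated Treg, also above every resting array, with a difference of 0.62 ± 0.20 (limma adjusted p = 0.239).

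None of the remaining differences passed. Itgae had 11.36, 11.16 and 10.64 in activated Treg, which overlap its resting values, and differed by 0.81 ± 0.38. Itgb1 had 10.11, 9.62 and 9.83 in activated Treg, all below the resting arrays, and differed by -0.44 ± 0.16 (limma adjusted p = 0.315). Itgb7 differed by -0.55 ± 0.25, Itgb3 by -0.68 ± 0.40 and Itga6 by -0.36 ± 0.18. Itgb2 differed by 0.32 ± 0.18 and Itgal by 0.09 ± 0.18.

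The third comparison sets activated Treg against resting conventional cells, and it shares its arrays with both comparisons above. Here 6 of the 10 subunits were called, 4 higher and 2 lower, beside 5.93% and 3.77% of all genes. The arrays did not overlap for 9 of 10, beside 41.1% of all genes. Itgae (6.52 ± 0.43), Itgb8 (5.64 ± 0.25), Itgb1 (2.96 ± 0.18) and Itgav (1.69 ± 0.22) were higher. In conventional cells Itgb8 was at background and Itgae was near it. Itgb3 (-2.33 ± 0.45; limma adjusted p = 0.0139) and Itga4 (-0.97 ± 0.25; limma adjusted p = 0.0457) were lower. The Itga4 call was lost without activated replicate 1 (adjusted p = 0.106) or 2 (0.131), without each resting Treg replicate in turn (0.0504 to 0.0614) and without either conventional replicate (0.361 and 0.162). Of 8 other settings, the Itga4 call held in 4. Settings that lost it included the mean of a gene's probe sets, only the 2 groups compared and a block for high Actb 3′ minus 5′ signal. The Itgb3 call was lost without either conventional replicate (adjusted p = 0.114 and 0.113). Itgb7 differed by -0.62 ± 0.27, Itgal by 0.45 ± 0.20, Itgb2 by 0.28 ± 0.21 and Itga6 by -0.27 ± 0.20, and none of these passed.

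By mean level, Itgae, Itgb8, Itgav and Itgal stood in the order conventional, resting Treg, activated Treg, although resting and activated arrays overlapped for Itgae and Itgal. Itgb7 and Itgb3 stood in the reverse order, with resting and activated arrays overlapping for both. Itgb1 was highest in resting Treg, then activated Treg, then conventional cells, with no overlap between neighbours.

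**Figure D2:**
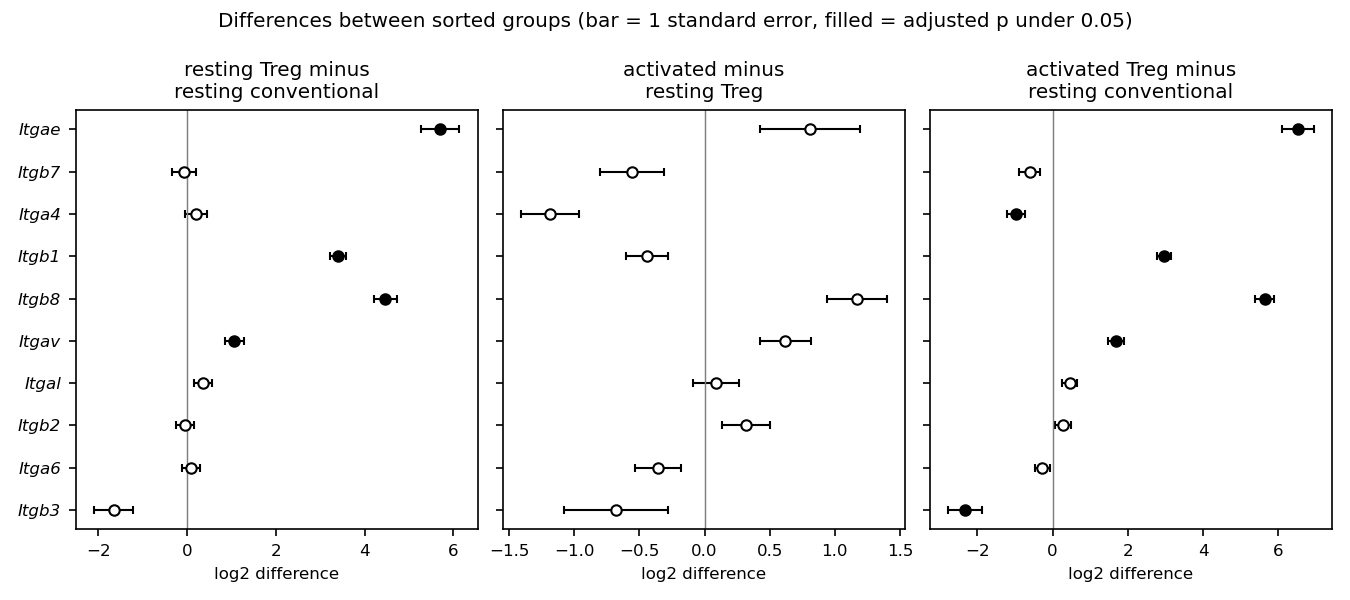
Log2 differences of the 10 subunits in the 3 comparisons of sorted groups, with bars of 1 standard error; filled points passed an adjusted p of 0.05 and each panel has its own scale. Itgae, Itgb8, Itgb1 and Itgav passed in both comparisons with conventional cells, and no subunit passed between activated and resting Treg.

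The ligand experiment asked whether contact with Sema4a changes Treg transcripts and whether this needs Nrp, its receptor on Treg. The deposited values have the same mean in all 16 pairs at every probe set, so levels cannot be compared between genotypes, and each result is a Sema4a-Ig minus IgG1 difference within a pair. In WT Treg, 4 of 9 subunits rose and 1 fell, beside 2.91% of all genes called higher and 2.88% called lower. The subunits that rose were Itgb3, Itgb7, Itga4 and Itga6, by 0.48 to 0.61 on the log2 scale, and Itgav fell. The median difference of the 9 was 0.22, against -0.01 over all genes. Each of the 4 that rose was higher in 8 of 8 WT pairs, which was the case for 3.03% of all genes, and no subunit was lower in all 8, beside 4.36% of genes.

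Itgb7, the beta chain of the gut-homing integrins, had differences of 0.43, 0.59, 1.27, 0.29, 0.38, 0.52, 0.56 and 0.41 in WT pairs 1 to 8. All were positive, and pair 3 was far above the rest. The mean was 0.56 ± 0.10 (standard error, n = 8; limma adjusted p = 0.00252). Without pair 3 it was 0.45.

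Its partner Itga4 had WT differences of 0.78, 0.57, 0.71, 0.23, 0.13, 0.24, 0.86 and 0.33. All pairs were higher with Sema4a-Ig, with pairs 1, 3 and 7 the highest. The mean was 0.48 ± 0.10 (n = 8; limma adjusted p = 0.0100). All 5 Itga4 probe sets gave positive means, of 0.14 to 0.48, and only the brightest was called. The lowest of these means came from a probe set at 3.49, under the highest control probe set (3.95). The Itga4 call was lost with the mean of its probe sets (0.27, limma adjusted p = 0.0872) and with 6 sets of neighbouring codes as a random block (0.42, adjusted p = 0.0838).

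Itga6 had WT differences of 1.00, 0.39, 0.82, 0.33, 0.17, 0.40, 0.44 and 0.25, all positive. The mean was 0.48 ± 0.09 (n = 8; limma adjusted p = 0.00299), and its other probe set gave 0.49 ± 0.11 and was called too. The beta chain that Itga6 and Itga4 share, Itgb1, had differences of 0.84, -0.0022, 0.53, -0.10, 0.11, -0.01, 0.07 and 0.33. These lay on both sides of 0, and the mean of 0.22 ± 0.10 was not called (limma adjusted p = 0.193).

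Itgb3 had WT differences of 1.33, 1.09, 0.79, 0.41, 0.26, 0.12, 0.57 and 0.32. All were positive and pairs 1 to 3 were the highest. The mean was 0.61 ± 0.11 (n = 8; limma adjusted p = 0.00304), the 65th largest increase of all genes. Its second probe set had a mean log2 signal of 3.52, under the highest control probe set (3.95). It gave 0.21 ± 0.09 in WT and -0.10 ± 0.09 in KO, and neither was called.

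Itgav, the alpha partner of Itgb3, moved against it. Its WT differences were -1.06, -0.55, -0.89, 0.06, -0.23, -0.24, -0.28 and -0.14, negative in 7 of 8 pairs, and pairs 1 and 3 were the lowest. The mean was -0.42 ± 0.11 (n = 8; limma adjusted p = 0.0271). The call was lost without WT pair 1 (-0.32, adjusted p = 0.0845), 2 (-0.40, 0.0597), 3 (-0.35, 0.110) or 7 (-0.44, 0.0519). The Itgav probe sets with mean log2 signals of 6.59 and 5.27 gave -0.59 ± 0.18 and -0.39 ± 0.16. The dimmer ones at 4.68 and 3.73 gave 0.44 ± 0.14 and 0.16 ± 0.17, and the signal of 3.73 is under the highest control probe set (3.95).

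The other subunits were not called. Itgae, which was higher in Treg than in conventional cells, had a lowest, median and highest WT difference of -0.23, 0.17 and 0.45, with 7 of 8 positive. Its mean of 0.17 ± 0.08 did not pass (limma adjusted p = 0.216). Itgal (-0.01 ± 0.06) and Itgb2 (-0.06 ± 0.07) had means within 1 standard error of 0, although the second Itgal probe set gave -0.24 ± 0.09 (limma adjusted p = 0.118).

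In KO Treg no subunit was called, beside 0% of all genes. The smallest adjusted p of any gene in KO was 0.376, and 1787 genes had an unadjusted p under 0.05. The subunits that rose in WT nevertheless had positive KO means. Itgb3 had 0.67, 0.42, 0.39, 0.38, 0.41, 0.08, 0.14 and 0.08 in KO pairs 1 to 8, positive in 8 of 8, with a mean of 0.32 ± 0.11 (limma adjusted p = 0.388). Itgb7 had 0.08, 0.42, 0.69, 0.20, 0.51, 0.08, 0.02 and 0.16, also positive in 8 of 8, with a mean of 0.27 ± 0.10. Itga6 had 0.02, 0.19, 0.25, 0.36, 0.31, 0.07, 0.04 and 0.26, with a mean of 0.19 ± 0.09. All 3 were positive in every KO pair, as were 0.988% of all genes.

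Itga4 had KO differences of 0.62, 0.36, 0.64, 0.34, 0.52, -0.21, -0.06 and 0.07, positive in 6 of 8, with a mean of 0.29 ± 0.10. Pairs 6 to 8 were near 0 or below it, and pairs 1 to 5 were higher. Itgav was negative in 8 of 8 KO pairs, as were 1.66% of all genes, from -0.63 to -0.0018, with a mean of -0.29 ± 0.11. Itgb1 had a KO mean of 0.23 ± 0.10, against a WT mean of 0.22 ± 0.10. Itgae (0.02 ± 0.08), Itgal (-0.03 ± 0.06) and Itgb2 (-0.0005 ± 0.07) were near 0.

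The difference between the genotypes was tested directly, as KO minus WT, and 0% of all genes were called for it. The smallest adjusted p was 0.614, and 1015 genes had an unadjusted p under 0.05. At the brightest probe set of each subunit that rose in WT, the KO response was smaller by 0.20 to 0.29 on the log2 scale. The values were -0.29 ± 0.12 for Itga6 (limma adjusted p = 0.830), -0.29 ± 0.14 for Itgb7 (adjusted p = 0.830), -0.29 ± 0.16 for Itgb3 (adjusted p = 0.854) and -0.20 ± 0.15 for Itga4 (adjusted p = 0.916). For Itgav the value was 0.13 ± 0.15. For Itga4 and Itga6 the size depended on the probe set. The second Itga6 probe set gave -0.10 ± 0.16, and the second Itgb3 probe set gave -0.31 ± 0.12. The Itga4 probe sets with mean log2 signals of 5.96, 5.78, 5.10 and 3.49 gave 0.07 ± 0.16, 0.02 ± 0.16, -0.21 ± 0.17 and 0.26 ± 0.19. These tests show neither a loss of the responses in KO cells nor an equal response.

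An exact two-sided sign-flip permutation test of each mean against 0 gives at least 0.00781 with 8 pairs, and 18 such tests were made, with no adjustment. In WT this smallest p was reached by Itgb7, Itga4, Itga6 and Itgb3, and Itgav had 0.0156. In KO it was reached by Itgb7, Itga6, Itgb3 and Itgav, and Itga4 had 0.0469 and Itgb1 0.0313. For Itgae the exact p was 0.0547 in WT and 0.773 in KO.

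**Figure D3:**
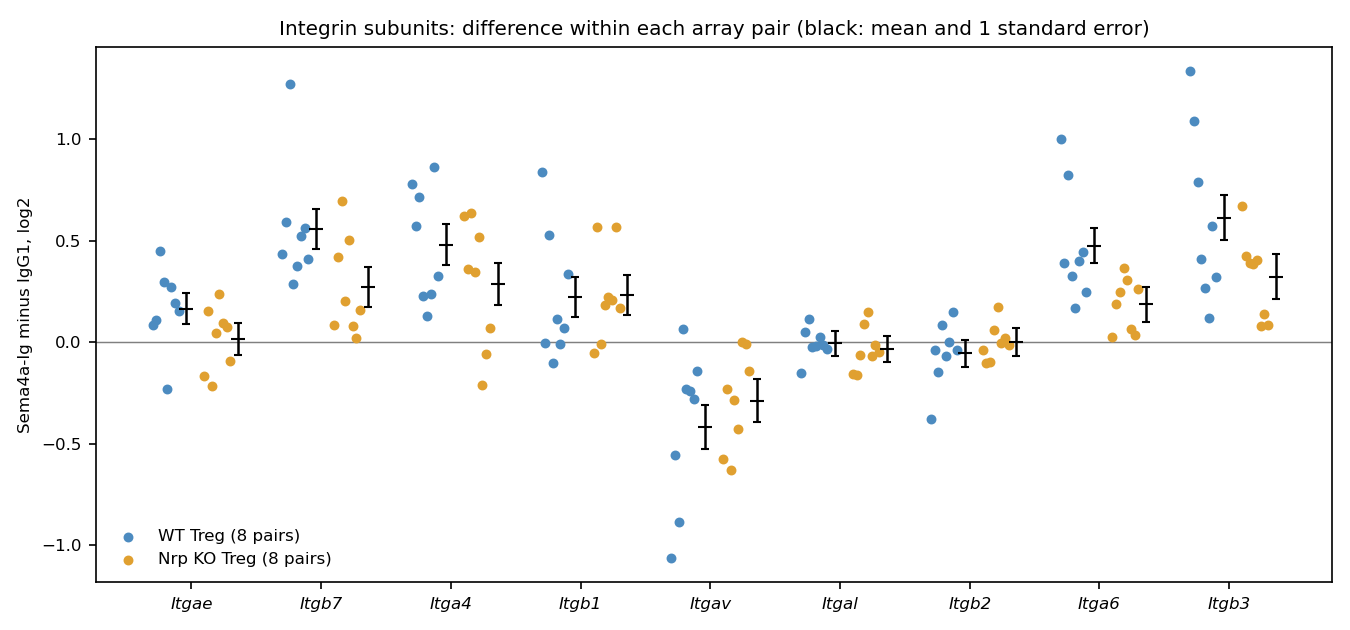
Sema4a-Ig minus IgG1 difference in log2 signal for 9 subunits, with 1 point per pair in WT (blue) and KO (orange) Treg and the mean with 1 standard error in black. Itgb7, Itga4, Itga6 and Itgb3 were above 0 in all 8 WT pairs, and Itgav was below 0 in 7 of them.

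Other measures moved with the WT response. The mean over 16 myeloid marker genes differed by 0.19 in WT, positive in 6 of 8 pairs and from -0.25 to 0.52, and by -0.02 in KO, positive in 4 of 8. In WT 12 of the 16 myeloid genes had positive means and 3 rose, namely Lyz2 (0.81), Tyrobp (0.39) and Ctss (0.37). In KO these 3 had means of 0.25, 0.36 and 0.16, and none was called. In the sorted conventional cells (n = 2) Ctss had a mean log2 signal of 12.72, against 4.54 for Lyz2 and 4.98 for Tyrobp. Ctss is thus a poor marker of myeloid cells among these T cells, although it was kept in the list. A myeloid covariate was the mean pair difference of the listed myeloid genes other than Itgam. With it the WT estimates were 0.56 ± 0.14 for Itgb3, 0.45 ± 0.11 for Itgb7 and 0.40 ± 0.10 for Itga6. They were 0.37 ± 0.12 for Itga4 and -0.34 ± 0.13 for Itgav, and none of these subunits was called (limma adjusted p 0.114 to 0.353). With this covariate 19 of the 17097 genes were called in WT, against 990 without it. Over the 9 platelet and megakaryocyte genes, a lineage that carries beta3, the mean differed by 0.13 in WT, from -0.24 to 0.38 over the pairs. The median of the 9 was 0.01, 6 had positive means, and Pf4 alone was called, with a rise of 0.86. Itga2b, the alpha partner of beta3 in platelets, had a mean of 4.08 ± 0.17 (SD, n = 8) with IgG1 in WT. With Sema4a-Ig in WT it was also 4.08 ± 0.17. Of 6 Treg genes, Ikzf2 (0.29) and Nrp1 (0.37) rose. In KO these 2 had 0.07 ± 0.08 and 0.34 ± 0.09, and neither was called. Nrp1 had a mean log2 signal of 8.40 with IgG1 in WT and 8.41 in KO. Since pair means are equal at every probe set, these levels cannot show whether Nrp1 was deleted in KO. In WT the B cell gene Cd79b rose by 0.35, and the natural killer gene Nkg7 and the erythroid gene Klf1 fell by 0.52 and 0.30. The part of these other cell types in the subunit differences was not tested. The Sema4a-Ig array of WT pair 2 has a knockout genotype label beside its WT title. Without that pair Itgb3 (0.54), Itgb7 (0.55), Itga6 (0.49) and Itga4 (0.47) were still called.

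How the subunits varied together across the 16 pairs can be described, with the arrays and their treatment shared by all genes. Itga4 and Itgb7 had a Pearson r of 0.62 over all pairs, 0.49 within the 8 WT pairs and 0.65 within the 8 KO pairs. Itga4 and Itgb3 had 0.76, with 0.74 in WT and 0.89 in KO. Itga6 and Itgb3 had 0.70, but 0.75 in WT and 0.03 in KO, so the pooled value does not describe the KO pairs. Itgav and Itgb3 had -0.81, with -0.82 in WT and -0.82 in KO. Itgal and Itgb2 had 0.50, with 0.40 in WT and 0.89 in KO. Itga4 and Itgb1 had 0.07, with 0.52 in WT and -0.48 in KO.

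The 3 genes closest to each called subunit over the 16 pair differences, by Pearson r, were the following. They were Dpp4 (0.93), Lce1i (0.92) and Saraf (0.92) for Itgb7. For Itga4 they were Selplg (0.86), Ppp1r12a (0.85) and Card6 (0.85). For Itga6 they were Ip6k1 (0.94), Ifi203 (0.93) and Clk1 (0.92), and for Itgb3 Lxn (0.91), Elf1 (0.89) and Cdipt (0.89). For Itgav they were Med14 (0.95), Eny2 (0.92) and Anapc15 (0.92). Dpp4 encodes the surface peptidase CD26 and Selplg the selectin ligand PSGL.

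In these separately normalised experiments, Itga4, Itgb7, Itga6 and Itgb3 had values of -1.18, -0.55, -0.36 and -0.68 for activated minus resting Treg and of 0.48, 0.56, 0.48 and 0.61 for Sema4a-Ig minus IgG1 in WT. Itgav had 0.62 and -0.42. Itgae had the same sign in both, with 0.81 and 0.17. Opposite signs were seen for 8 of the 9 subunits, beside 53.3% of the 16685 genes in both experiments. The 8 include Itgb1 (-0.44 and 0.22), Itgal (0.09 and -0.01) and Itgb2 (0.32 and -0.06). The Sema4a-Ig differences of Itgal and Itgb2 were within 1 standard error of 0, so their signs carry little weight. None of the activation differences passed its test, and no test joins the 2 experiments.

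**Figure D4:**
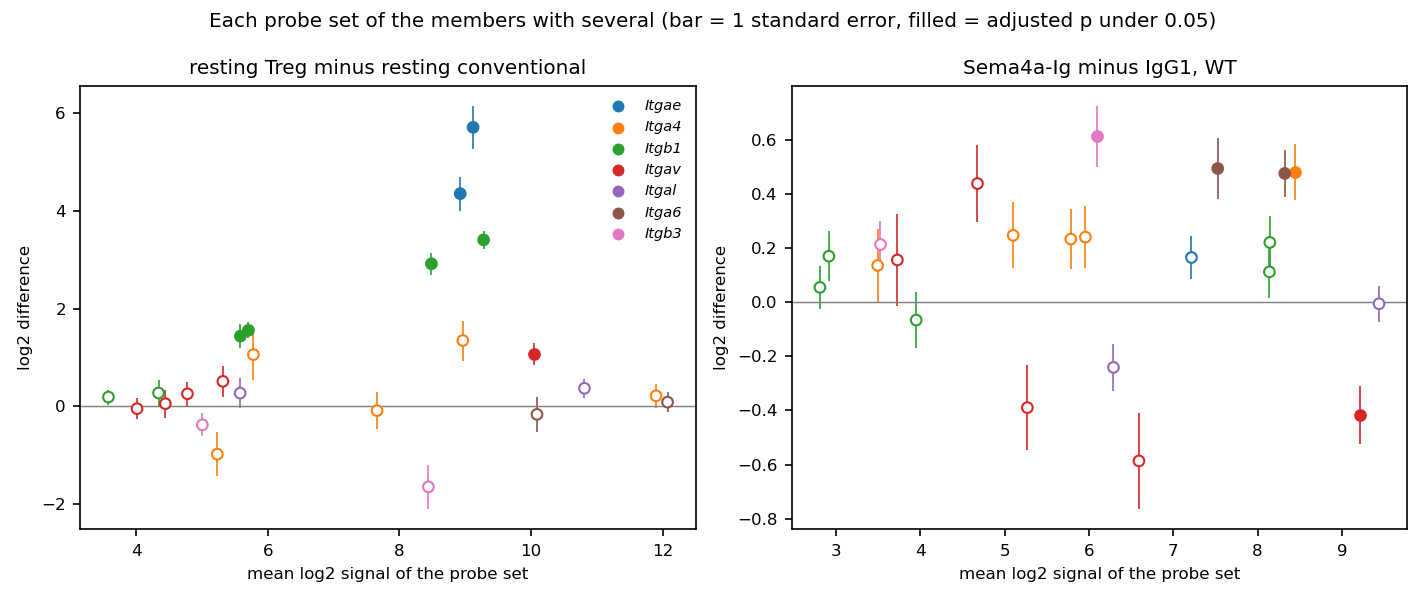
Log2 difference of every probe set of the 7 subunits with several, against its mean log2 signal, for resting Treg minus resting conventional cells (left) and Sema4a-Ig minus IgG1 in WT (right), with bars of 1 standard error; filled points passed an adjusted p of 0.05 over all probe sets. Both Itgae and 4 of 6 Itgb1 probe sets passed on the left, and both Itga6 probe sets passed on the right, while the Itgav probe sets on the right lay on both sides of 0.

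Of 16 other integrin subunits 14 were measured, and none was called in 5 of the 6 comparisons. The exception was Itga7, a laminin receptor chain of muscle, whose mean log2 signal ± SD was 4.63 ± 0.38 in activated Treg (n = 3), 5.87 ± 0.33 in resting Treg (n = 3) and 6.91 ± 0.38 in conventional cells (n = 2). It was lower in activated Treg than in conventional cells by -2.28 ± 0.29 (limma adjusted p = 0.00215). In that comparison 5.93% of all genes were called higher and 3.77% lower. In the other 5 comparisons 0% to 3.86% of all genes were called higher and 0% to 2.88% lower. The median difference of these 14 was 0.02 for Sema4a-Ig in WT and 0.05 for resting Treg against conventional cells, against -0.01 and 0.01 over all genes.

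The genes that switch integrins on or tie them to actin were read next. Of 29 measured, 3 rose and 1 fell in resting Treg against conventional cells, beside 3.86% and 1.65% of all genes, with a median of -0.11. Vcl, the actin linker vinculin, had means ± SD of 7.08 ± 0.46 in resting Treg (n = 3) and 5.92 ± 0.03 in conventional cells (n = 2). The kindlin gene Fermt3 (0.80 ± 0.18) and the GTPase gene Rap1a (0.66 ± 0.15) were higher too. Rasgrp2, the exchange factor that loads Rap, was lower, with 6.74 ± 0.48 in Treg and 8.54 ± 0.03 in conventional cells. None of the 29 was called between activated and resting Treg, beside 0.522% of all genes higher and 0.22% lower, and their median was -0.14. In activated Treg against conventional cells 3 rose, Vcl (1.65), Rap1gap2 (1.18) and Rap1a (0.79), and 3 fell, Rasgrp2 (-1.86), Rasgrp1 (-1.81) and the cytohesin gene Cyth1 (-0.78), beside 5.93% and 3.77% of all genes.

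With Sema4a-Ig in WT Treg, 8 of 28 measured genes of this group rose and 2 fell, beside 2.91% and 2.88% of all genes, with a median of 0.06. With the myeloid covariate described above none of the 28 was called (smallest limma adjusted p = 0.0713, for Rasgrp1). That covariate left 19 of the 17097 genes called. The 8 were Rasgrp1 (0.54 ± 0.09), Rasgrp2 (0.48 ± 0.13), the adaptor gene Fyb (0.46 ± 0.08), Cyth1 (0.42 ± 0.08), Cytip (0.40 ± 0.08), Rhoh (0.34 ± 0.10), Skap1 (0.32 ± 0.08) and Dock2 (0.31 ± 0.07). Fyb and Skap1 encode ADAP and its partner, which couple the T cell receptor to integrin activation. Rasgrp1 was higher in 8 of 8 WT pairs, from 0.29 to 0.92. The 2 that fell encode focal adhesion proteins, vinculin (Vcl, -0.53 ± 0.13) and zyxin (Zyx, -0.34 ± 0.09), and each was lower in 7 of 8 pairs. In KO none of the 28 was called, their median was 0.05, and Rasgrp1 had a mean of 0.22 with 7 of 8 pairs positive.

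**Figure D5:**
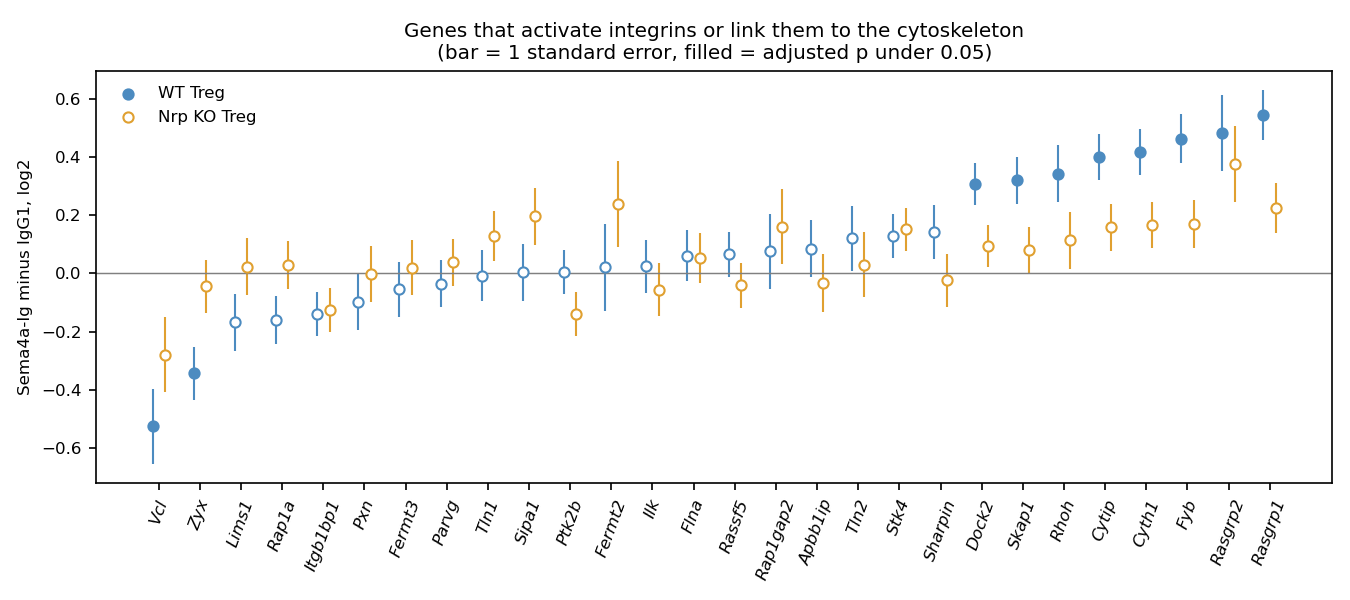
Sema4a-Ig minus IgG1 difference in log2 signal for the 28 measured genes that activate integrins or link them to the cytoskeleton, ordered by the WT value, in WT (blue) and KO (orange) Treg, with bars of 1 standard error; filled points passed an adjusted p of 0.05. The 8 filled WT points above 0 lie between 0.31 and 0.54, Vcl and Zyx lie below 0, and no KO point passed.

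The genes for integrin ligands and latent TGF-beta gave few calls. Of 18 measured, 3 rose in resting Treg against conventional cells, beside 3.86% of all genes, with a median of -0.01. Lamc1, a laminin chain, had means ± SD of 6.81 ± 0.73 in resting Treg (n = 3) and 4.44 ± 0.02 in conventional cells (n = 2). Icam1, the counter-receptor of alphaL with beta2, had 9.52 ± 0.76 and 7.49 ± 0.38, and Ltbp3, a latent TGF-beta binding protein gene, had 6.19 ± 0.10 and 4.93 ± 0.25. In activated Treg Lamc1 alone was called against conventional cells (3.59 ± 0.39), beside 5.93% of all genes called higher and 3.77% lower. None of the 18 was called between activated and resting Treg, beside 0.522% and 0.22% of all genes. In the ligand experiment none of the 17 measured was called in either genotype. There 2.91% of all genes were called higher and 2.88% lower in WT, and 0% in KO.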

How the data were processed

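Transcripts of mouse CD4+ T cells were measured on 40 Affymetrix arrays of 2 types, each type analysed on its own. The deposited values are log2 signals per probe set, made by the authors with RMA in Partek 6.6 per the submitters' processing notes; the labels record nothing further. The number of arrays limits the precision. On the ligand arrays all 16 pairs had equal means at each probe set (within 6e-05), so only pair differences were tested, and the pairing comes from the neighbouring codes in the titles. WT_Sema replicate 2 was grouped by its title.

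Probe sets with 1 gene in the platform annotation were kept, 34958 of 45101 on the sorted arrays and 28898 of 45141 on the ligand arrays, and the brightest per gene was used. Fits were made over all genes with limma 3.58.1 in R 4.3.3, with 3 group means (5 residual degrees of freedom) for the sorted arrays and the mean pair difference per genotype (14) for the ligand arrays, and Benjamini-Hochberg adjusted p-values under 0.05 were called. The script was tested on simulated data. Exact sign-flip permutation tests used scipy. The design fixed an adjustment of these over the members, which is not given since the list was chosen. Named genes were all members, up to 5 called genes per list and comparison with the largest difference (further ones were named after their values were seen), and the 3 genes nearest to each called member. The members and lists were chosen with earlier results of these data known. Alternatives were other probe set summaries, filters, scalings, weights, blocks and covariates, and leaving out each replicate. Promoters came from the RefSeq table for 5 of the 10 members, and no protein sequences were used.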

Additional observations from a re-analysis of the deposited data

Results flagged for a closer look

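The Sema4a-Ig minus IgG1 difference of Itgb7 in WT pair 3 was 1.27 on the log2 scale, and the next highest WT pair was at 0.59. This gap was larger than Dixon's 95% criterion for 8 values allows. It was the only such value among 20 sets of 8 pairs examined, and chance alone gives about 1 in 20. Without pair 3 the WT mean of Itgb7 was 0.45 and it was still called.

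A probe set of the ligand arrays that could read Itgb8 has no gene in the annotation table used and entered no comparison. Its identifier without the PM part is that of the Itgb8 probe set on the other array type, and the annotations of both array types give the same gene symbol for 95.4% of the 29351 identifiers they share. Its mean log2 signal over the 32 arrays was 8.11, above the highest control probe set (3.95). Its Sema4a-Ig minus IgG1 difference was -0.07 ± 0.14 (standard error, n = 8, 5 of 8 positive; exact sign-flip permutation p = 0.703) in WT and 0.02 ± 0.09 (4 of 8 positive; exact p = 0.852) in KO.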

How the results depend on the processing

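The directions of the called members were the same under every alternative run within each comparison, other than single probe sets of Itgav, and which calls were lost differed. Resting Treg against conventional cells gave 1003 calls, 3005 with array weights and 1633 with the Actb signal class as a block, and 242 to 1208 without 1 replicate (members 3 to 5), with 242 and 288 without conventional replicates 1 and 2; quantile normalization moved the split from 703 higher and 300 lower to 671 and 500. Activated against resting Treg gave 135, and 216, 957, 36, 318 and 24 with quantile normalization, array weights, only the 2 groups compared, the Actb class as a block and only low-Actb arrays (1 activated array left, assumed here and below to vary like the other groups), and 12 to 168 without 1 replicate (members 0 to 1), with 12 and 67 without activated replicates 1 and 3, 34 without resting Treg replicate 2 and 36 without either conventional replicate. Members called there were 1, 2, 1 and 1 with quantile normalization, array weights, limma-trend and the Actb block, Itga4 each time and Itgb8 with array weights. Activated Treg against conventional cells gave 1765, and 5894 with array weights and 873 with low-Actb arrays, and 433 to 2262 without 1 replicate (members 4 to 7), with 433 and 565 without conventional replicates 1 and 2 and 1127 without activated replicate 2.

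Sema4a-Ig in WT gave 990 calls and 5 members. With the mean of a gene's probe sets 3 members were called, and with 6 sets of neighbouring codes as a random block 3 (305 genes); Itga4 and Itgav were lost in both. With the myeloid covariate 0 were called (19 genes), so all 5 were lost. The count was 1654 among genes above the median signal, 484 with the WT pairs alone, and 258 to 1328 without 1 replicate (members 4 to 5), with 258 without WT pair 3, 413 without pair 7 and 538 without pair 1. With no replicate block, ignoring the pairs, 4417 genes were called in WT, 1734 genes and 6 members in KO and 530 genes and 1 member for KO minus WT; that fit counts paired arrays as independent. Without 1 replicate KO and KO minus WT kept 0 calls.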
